A study of Mus musculus with 4 samples.

Results

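The dendritic cells described here were 125 of 6130 cells in a preparation sorted from the lamina propria of the mouse small intestine as group 3 innate lymphoid cells (ILC3s). They were chosen by their own transcript counts. A cell was a member when H2-Aa, H2-Ab1 and Cd74 together had at least 30 UMIs (unique molecular identifiers, 1 per captured transcript) and Cst3 had at least 5. In addition, C1qa, C1qb and C1qc together could have at most 2, and Cd79a and Cd3e none. Replicate 1 held 91 such cells among 1945 (4.68%, exact binomial 95% interval 3.78% to 5.71%). Replicate 2 held 34 among 4185 (0.812%, interval 0.563% to 1.13%). These and all later intervals cover counting error only. The genes named for the class II, Cst3 and C1q limits, with Cd79a and Cd3e, chose the cells, so their levels are given as a description and support nothing.

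All mice carried Cxxc1flox/flox and a cre transgene and were 6 to 8 weeks old, and all samples belonged to 1 group without Cxxc1-sufficient controls, so no effect of the deletion could be measured. Cxxc1 encodes a CpG-binding subunit of the SET1 histone H3 lysine 4 methyltransferase complexes. The transcripts were read on the BD Rhapsody system in 2 replicates, each sequenced as 2 libraries that share 1 table. The sources used here do not say that the replicates were separate animals. The shift between replicates was fitted, so p-values measure only how far differences between classes varied between these 2 samples. That variation may be technical.

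Dendritic cells take up antigen, cut it into peptides and show these to T cells on class II (and, for some types, class I) molecules. The conventional cells depend on the growth factor receptor Flt3. Those of the intestinal lamina propria are usually divided into a type with Xcr1 and Clec9a, which is specialised in showing antigen from dead cells on class I, and a type with Sirpa and Irf4, part of which carries the lectin Cd209a. Either type can mature, switch on Ccr7 and leave with the lymph for the mesenteric nodes, where gut dendritic cells are known for making retinoic acid and steering T cells. ILC3s carry class II molecules of their own, and intestinal macrophages carry much of them, which is why both were used for comparison.

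The label was checked against Flt3, Itgax and Xcr1, which the rule did not use. Flt3 had a UMI in 57 of 91 members in replicate 1 (62.6%) and in 13 of 34 in replicate 2 (38.2%). Among cells with a Cd3e UMI, which should lack it, 2 of 332 (0.602%) and 3 of 1929 (0.156%) had one, at median depths of 2990 and 2206 UMIs against 9092 and 6780 in the members. Itgax, the integrin chain CD11c, had a UMI in 71.4% and 41.2% of members against 2.71% and 6.43% of the Cd3e-positive cells. Its level was 1.97-fold and 4.06-fold lower in members than in the macrophages described below, so Itgax does not set members apart from macrophages. Xcr1, a chemokine receptor of the cross-presenting type, had one in 49.5% and 11.8% of members. Most members of replicate 1 thus carried Flt3, and most carried Itgax, whereas in replicate 2 more members lacked Flt3 or Itgax transcripts than had them.

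Some members went against the label. After their values had been seen, members without Xcr1, Clec9a or Cd209a were sorted by transcripts of other cell types. In 5 and 4 of them (replicates 1 and 2) Col1a1, Col1a2, Col3a1 and Dcn, genes of fibroblasts, summed to 319 to 1945 UMIs, against at most 10 in every other member. A further 2 and 2 had 31 to 67 UMIs of the epithelial genes Epcam, Krt8 and Krt19, against at most 2 elsewhere. One cell of replicate 1 had 1743 UMIs of immunoglobulin genes, where other members reached 1308. A last set of 2 and 5 cells had 6 to 43 UMIs of ILC3 genes with no Flt3 and at most 4 UMIs of Csf2ra and Csf2rb, while other members reached 35 UMIs of the ILC3 genes, so these last marks overlap with unmarked members. These marked cells were 10 of 91 members in replicate 1 (11.0%) and 11 of 34 in replicate 2 (32.4%). Without them 81 and 23 members remained, 4.16% and 0.550% of kept cells, and Flt3 had a UMI in 70.4% and 56.5%. The cells marked by ILC3 genes had been chosen to lack Flt3, so part of this rise was fixed in advance and supports nothing. Whether the marked cells were doublets was not tested. The doublet caller Scrublet called 39 and 6 of all kept cells, 2 and 0 of them among the members. These 2 were Xcr1/Clec9a-gated, and no marked cell was called. Doublets must be taken as present. Counts of called genes that the marked cells change are given with and without them.

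**Figure D1:**
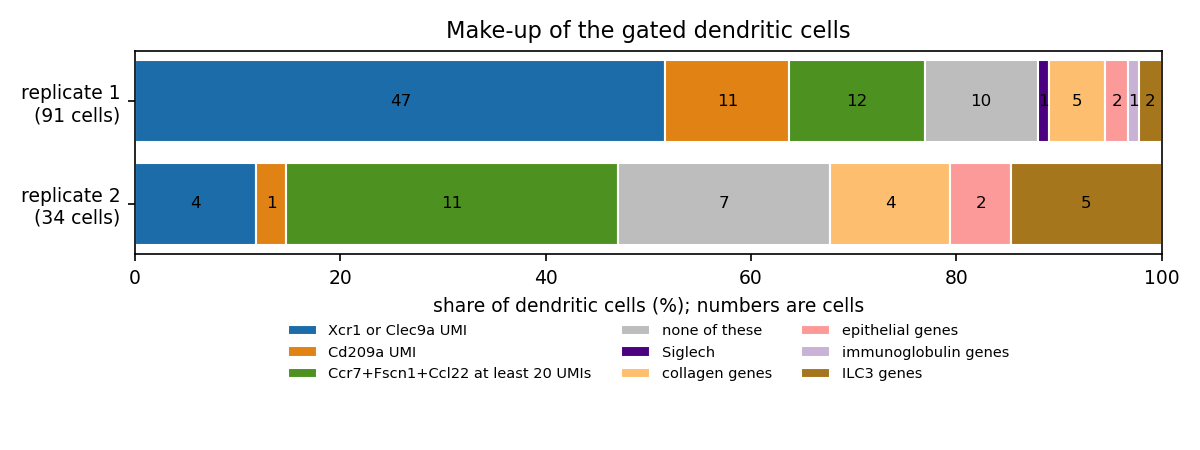
Make-up of the dendritic cells in each replicate, as the share of members (x axis, percent) in each category, with cell numbers written in the bars. Xcr1/Clec9a-gated cells were 47 of 91 in replicate 1 and 4 of 34 in replicate 2, and cells marked by other cell types were 10 and 11.

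Cells near the limits of the rule were few for class II and many for Cst3. In replicates 1 and 2, 4 and 5 members had 30 to 39 class II UMIs, and 0 of them had Flt3, while 4 and 7 cells that met the other limits had 20 to 29. Members with 5 or 6 Cst3 UMIs numbered 11 and 6, and 23 and 24 cells with 3 or 4 were left outside, of which 15 and 23 had at least 5 UMIs of ILC3 genes. Cd79a alone kept out 14 and 1 cells and Cd3e alone 1 and 9. Class II UMIs per member ran from 30 over a median of 352 to 1227 in replicate 1 and from 30 over 109.5 to 753 in replicate 2. Cst3, a cysteine protease inhibitor, ran from 5 over 69 to 817 and from 5 over 35.5 to 530.

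Type genes divided the members unequally in the 2 replicates. Xcr1 or Clec9a had a UMI in 47 of 91 members of replicate 1 (51.6%, interval 40.9% to 62.3%) and in 4 of 34 of replicate 2 (11.8%, interval 3.30% to 27.5%). Cd209a had one in 11 of 91 (12.1%, interval 6.19% to 20.6%) and in 1 of 34 (2.94%, interval 0.0744% to 15.3%), and no cell had both. In Cd3e-positive cells Xcr1 or Clec9a had a UMI in 0.904% and 0.207%, and Cd209a in 0 of 332 and 0 of 1929, which allows shares of up to 0.904% and 0.156%. When every member was reduced to 2000 UMIs, 37 of 87 cells (42.5%) and 1 of 30 (3.33%) still had an Xcr1 or Clec9a UMI, so the lower share in replicate 2 was also seen at equal depth. The share for Cd209a was 5.75% and 0 at that depth. With 1 value per replicate there is no test of these gaps between replicates.

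The gate was firm in replicate 1 and thin in replicate 2. Of the 47 Xcr1/Clec9a-gated cells in replicate 1, 45 had Xcr1 and 41 Clec9a, 39 had both, and 7 rested on exactly 1 UMI. Their summed Xcr1 and Clec9a count ran from 1 over a median of 12 to 72. In replicate 2, 3 of the 4 cells rested on 1 UMI. Cd209a counts in replicate 1 ran from 1 over a median of 3 to 34 among the 11 gated cells, 3 of which had 1 UMI. Both types were deep in replicate 1, with medians of 11271 and 11870 UMIs per cell. In RefSeq's GRCm38.p6 annotation Xcr1 spans chr9:123852315-123862029, Clec9a chr6:129408862-129424764 and Cd209a chr8:3743395-3748984.

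**Figure D2:**
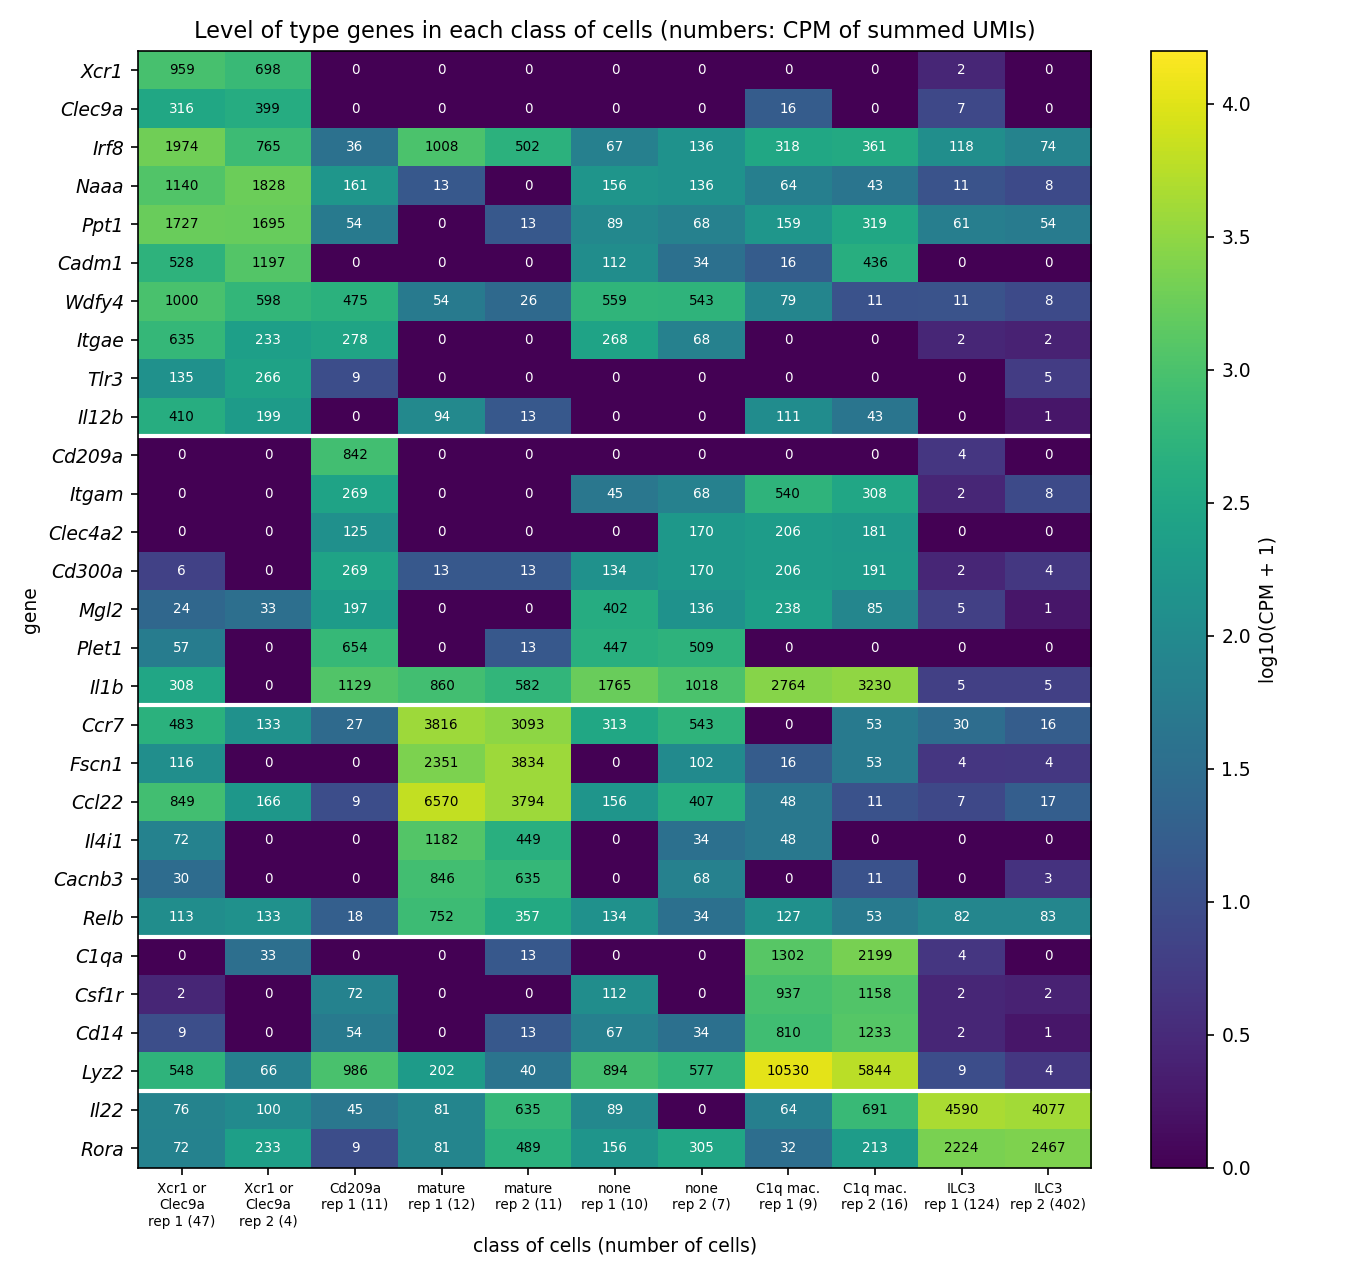
Heat map of type genes by class of dendritic cell, with C1q macrophages and class II-bearing ILC3s for comparison, each column being 1 replicate's sum and the colour giving CPM on a log scale. The XCR1-type genes stand out in the Xcr1/Clec9a-gated columns, for example Naaa at 1140 and 1828, and Fscn1 in the mature columns at 2351 and 3834.

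Below, a level is the summed UMIs of a gene over the cells of a class in 1 replicate, scaled to 1000000 UMIs of that class (CPM). The members summed to 887649 and 254645 UMIs. Class II-bearing ILC3s, gated on ILC3 genes, among them Il23r, Il22, Il7r and Il1r1, with at least 5 class II UMIs and at most 4 of Cst3, were 124 and 402 cells with 559680 and 1307497 UMIs. They carried a median of 19 and 14 class II UMIs per cell. As background, 9.04% and 5.24% of Cd3e-positive cells had at least 5 class II UMIs. Macrophages, gated on at least 5 C1q UMIs with the members' other limits, were 9 and 16 cells with 62960 and 94113 UMIs. Differences from ILC3s were tested on the sums with edgeR's quasi-likelihood test, replicate as a block, and Benjamini-Hochberg adjustment over all genes (threshold 0.05), and are log2 fold changes with their SE. A class with fewer than 10 cells in a replicate received no test, so macrophages and the 2 types are described by values and folds.

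Against ILC3s the members were higher for genes of the XCR1 and mature types, class II loading, co-stimulation and GM-CSF reception, and lower for genes of lymphocytes. Of 6402 genes tested, 813 were higher (12.7%) and 616 lower (9.62%) in dendritic cells, with a median log2 fold change of -0.03. By the naming rule the 10 genes with the largest increase were Clu, Agr2, Cadm1, Plet1, Plbd1, Il4i1, Gkn3, Tff2, Ifi205 and Pgc. For 5 of these the increase came from the 4 members marked by epithelial genes, which held 3500 of 3505 UMIs of Tff2, 956 of 960 of Gkn3, 591 of 591 of Agr2, 727 of 729 of Clu and 143 of 143 of Pgc. Tff2, Gkn3 and Pgc are secretory genes of the stomach and upper gut epithelium. Without the marked cells 740 genes were higher and 711 lower, and these 5 genes were at 10 CPM or below.

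The other 5 of the 10 stayed among the 10 largest increases without the marked cells. Cadm1, an adhesion molecule that binds Crtam on T cells, was at 331 and 153 CPM in members and had no UMI in ILC3s, at least 61.8-fold and 66.7-fold higher with ILC3s set at 3 counts per replicate (edgeR adjusted p = 0.00063). Plet1, a surface protein, was at 146 and 200 CPM, at least 27.3-fold and 87.3-fold higher (edgeR adjusted p = 5.4e-05). Il4i1, a secreted amino acid oxidase, was at 144 and 137 CPM, at least 26.9-fold and 59.9-fold higher (edgeR adjusted p = 0.00012). With DESeq2 neither Plet1 (adjusted p = 0.183) nor Il4i1 (adjusted p = 0.0503) passed. Ifi205, an interferon-inducible gene, was at 342 and 19.6 CPM, at least 63.9-fold and 8.56-fold higher (edgeR adjusted p = 0.00014). These 4 genes were at 0 in ILC3s of both replicates, so their fitted fold changes depend on the prior count and are not given. With no ILC3 counts they could differ in just 1 direction, so their p-values are a description and not support. Plbd1, a phospholipase B-like protein, was at 1223 and 192 CPM against 1 UMI in all ILC3s, a ratio of 1855 (interval 332 to 73342). By type, Plbd1 reached 1766 CPM in the Xcr1/Clec9a-gated and 959 CPM in the Cd209a-gated cells of replicate 1 but 13.4 CPM in mature cells. Without the marked cells the list of 10 also held Gatm, Rtn1, Gpr141b, Tbc1d4 and Xcr1, of which Tbc1d4, a Rab GTPase-activating protein, was at 584 and 1193 CPM in members against 1.79 and 2.29 CPM in ILC3s.

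Several of the genes with the largest decrease are known from lymphocytes. Lta, which encodes lymphotoxin alpha, was at 3.38 and 31.4 CPM in members against 114 and 213 CPM in ILC3s (log2 fold change -3.52). Csf2, the cytokine GM-CSF, was at 11.3 and 47.1 CPM against 331 and 205 CPM (-3.37 ± 0.57, edgeR adjusted p = 0.0016). Gata3, a transcription factor of lymphoid cells, was at 1.13 and 31.4 CPM against 96.5 and 122 CPM (-3.27, edgeR adjusted p = 0.0070). The remaining 7 of the 10 were Adgrg3, Gimap3, Xlr4c, Cntn1, Emid1, Txk and Serpine2, from -3.60 to -3.26. Gimap3, a GTPase of lymphocytes, was at 14.6 and 51.1 CPM against 266 and 459 CPM. Lta, Csf2, Gata3 and Gimap3 stood higher in the members of replicate 2, where marked cells were the larger share, than in those of replicate 1. The part of the marked cells in this was not tested. Without the marked cells the largest decreases were those of Cntn1 (-6.48), Kcnk1 (-5.49) and Tox (-5.09).

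**Figure D3:**
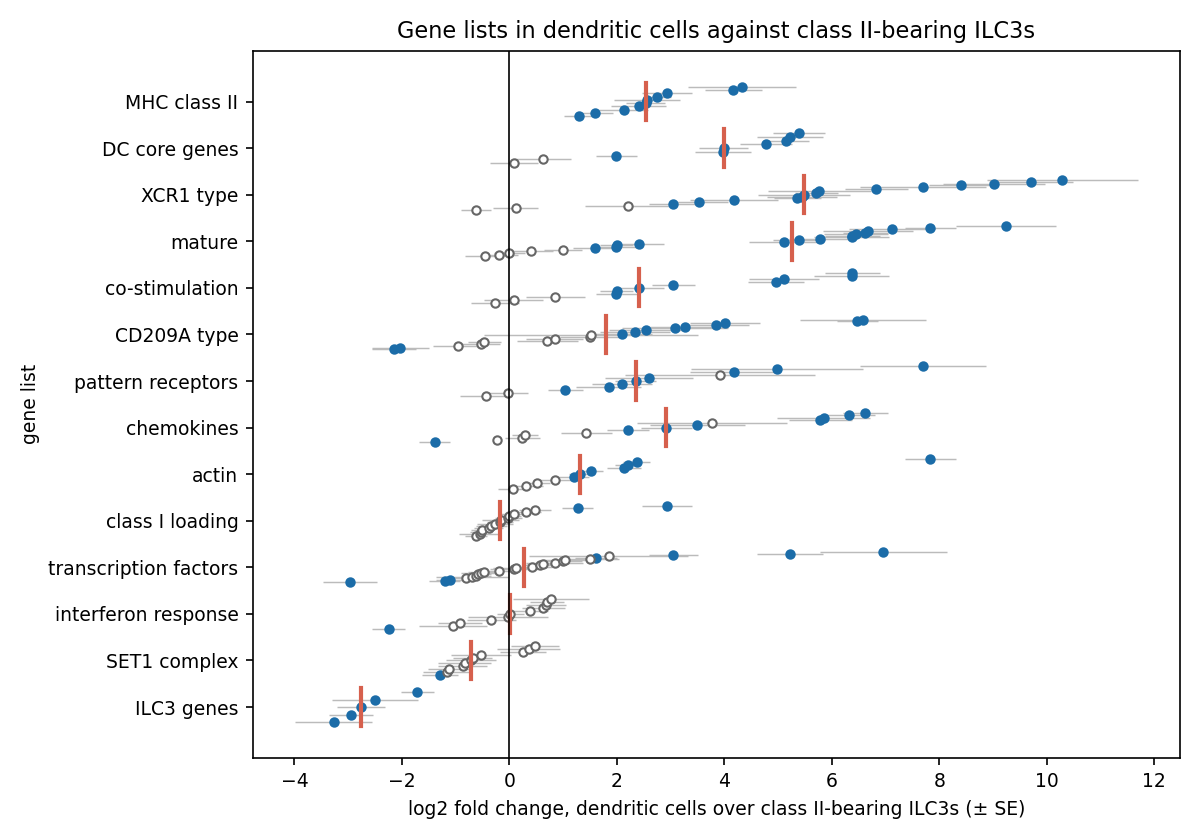
Log2 fold change of dendritic cells over class II-bearing ILC3s for the genes of each list (points, with SE bars), where filled points passed edgeR's test and the red bar is the list's median. The XCR1-type list has a median of 5.49 and the mature list 5.25, against -0.03 over all genes tested.

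Genes shared by conventional dendritic cells were higher, apart from Zbtb46 and Kmo. Of 9 tested members of this list 7 were higher and 0 lower, with a median log2 fold change of 3.99, against 12.7% higher over all genes. Flt3 was at 185 and 94.2 CPM in members against 7.15 and 3.82 CPM in ILC3s (4.77 ± 0.49, edgeR adjusted p = 0.00013). Itgax was at 403 and 157 CPM against 12.5 and 5.35 CPM (5.14 ± 0.42, edgeR adjusted p = 1.8e-05). Both genes were far from overlapping between classes. Spi1, the myeloid factor PU.1, was at 192 and 106 CPM against 5.36 and 3.82 CPM (5.22, edgeR adjusted p = 0.00018). Zbtb46, a transcription factor often used to trace conventional dendritic cells, was at 29.3 and 51.1 CPM against 41.1 and 40.5 CPM and did not pass (0.08, edgeR adjusted p = 0.92), and the classes overlapped. A gene that entered the test only because members express it could differ in just 1 direction, so list counts here and below describe the lists and are not support for them.

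Class II genes other than the 3 used by the rule were also higher, in a class selected on the class II sum. Of the 12 class II genes outside the rule 10 were tested, and all 10 were higher, with a median of 2.55 (2.96 without the marked cells). H2-Eb1, the beta chain of I-E, was at 9166 and 4846 CPM against 1288 and 1027 CPM in ILC3s (2.74). H2-DMb1, a chain of the peptide loader H2-M, was at 350 and 110 CPM against 35.7 and 29.8 CPM (2.93). H2-Ob, a chain of H2-O, which holds H2-M in check, was at 137 and 55.0 CPM against 7.15 and 3.82 CPM (4.17), and its partner H2-Oa at 66.5 and 51.1 CPM against 16.1 and 13.8 CPM (2.13). The members of replicate 1 were above those of replicate 2 for all 4 genes, and members and ILC3s did not overlap for any. Ciita, the master regulator of class II transcription, was at 134 and 55.0 CPM against 23.2 and 17.6 CPM (2.41). March1, a ubiquitin ligase that removes class II from the surface, had a log2 fold change of 4.33. The proteases that trim the invariant chain were higher too, Ctss at 631 and 522 CPM against 239 and 311 CPM (1.29) and Lgmn by 2.56.

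Class II genes are known to share short promoter boxes, one of them a Y box read by NF-Y, so windows that hold its letters are shown. The 100 bases before the RefSeq start (GRCm38.p6) were searched on both strands for GATTGG, the Y box letters, which the capitals mark (a match on the other strand reads CCAATC). H2-Aa, part of the rule, stands at chr17:34287824-34287923 on the minus strand, with the letters 49 bases before the start. The others are on the plus strand, H2-DMb1 at chr17:34153091-34153190, H2-Eb1 at chr17:34305767-34305866, H2-Oa at chr17:34092279-34092378 and H2-Ob at chr17:34238805-34238904, with the letters 62, 60, 44 and 58 bases before the start. The H2-Eb1 window has a further match on the other strand, 35 bases before the start.
H2-Aa: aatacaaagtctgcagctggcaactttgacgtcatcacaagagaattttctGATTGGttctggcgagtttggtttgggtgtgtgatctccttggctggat
H2-DMb1: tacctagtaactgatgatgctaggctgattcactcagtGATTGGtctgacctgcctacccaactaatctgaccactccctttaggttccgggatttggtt
H2-Eb1: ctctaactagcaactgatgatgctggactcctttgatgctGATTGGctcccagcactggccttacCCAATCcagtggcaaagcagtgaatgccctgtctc
H2-Oa: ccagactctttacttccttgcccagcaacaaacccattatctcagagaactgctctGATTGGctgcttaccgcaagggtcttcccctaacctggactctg
H2-Ob: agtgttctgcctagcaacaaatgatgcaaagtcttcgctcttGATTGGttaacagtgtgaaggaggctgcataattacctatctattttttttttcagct
The letters were present in 6 of 13 windows of the class II list, for 6 of the 11 symbols that matched the RefSeq table (the 5 printed and H2-DMb2), and in 2833 of 32851 windows of all genes (8.62%). The windows of H2-DMa, H2-Eb2, Ctss, Lgmn and Ifi30 did not hold them. A match describes the letters and is neither a shown binding site nor a cause of the levels above.

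Of 16 class I loading genes tested 2 were higher and 0 lower, with a median of -0.17, and the share higher was close to the 12.7% over all genes. The pair were Psmb9, a subunit of the immunoproteasome (1.27), and Cybb, the NADPH oxidase chain that slows antigen breakdown in phagosomes (2.93). Without the marked cells H2-K1, H2-D1 and B2m, which encode the class I molecule itself, passed as lower.

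Most XCR1-type genes were higher than in ILC3s. Of 17 tested 14 were higher (15 without the marked cells, Cd36 being added) and 0 lower, with a median of 5.49 (5.36 with genes absent in ILC3s at their bound). Xcr1 itself was at 586 and 82.5 CPM in members against 1 UMI in all ILC3s, a ratio of 884 (interval 158 to 34992). Naaa, a lysosomal amidase, was at 729 and 259 CPM against 10.7 and 7.65 CPM (5.71, edgeR adjusted p = 5.3e-06). Wdfy4, which cross-presentation needs, was at 704 and 165 CPM (5.36, edgeR adjusted p = 1.8e-05). Irf8, the transcription factor that specifies this type, was at 1315 and 295 CPM against 118 and 74.2 CPM (3.05 ± 0.45, edgeR adjusted p = 0.00073). Each of these 4 genes was lower in the members of replicate 2, where Xcr1/Clec9a-gated cells were the smaller share. The part of that share in the lower levels was not tested. Itgae, the integrin CD103 that holds cells to the epithelium, was at 437 and 82.5 CPM, a ratio to ILC3s of 223 (interval 75.7 to 1085). Batf3, partner of Irf8, did not pass (0.12, edgeR adjusted p = 0.88), nor did Id2 (-0.62, edgeR adjusted p = 0.15), an inhibitor that ILC3s also need.

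Within the members of replicate 1 these genes followed the gate. In replicate 2 the gated values come from 4 cells, and the deepest of them held 18212 of their 30082 UMIs. They are close to the profile of 1 cell and are given as a description. Irf8 was at 1974 and 765 CPM in the Xcr1/Clec9a-gated cells of replicates 1 and 2, at 35.8 CPM in Cd209a-gated cells of replicate 1 and at 1008 and 502 CPM in mature cells. Naaa was at 1140 and 1828 CPM in the gated cells and at 13.4 and 0 CPM in mature cells. Ppt1, a lysosomal thioesterase, was at 1727 and 1695 CPM against 53.8 CPM in Cd209a-gated and 0 and 13.2 CPM in mature cells. Cadm1 was at 528 and 1197 CPM and absent from Cd209a-gated and mature cells. Of the 3 classes Naaa, Ppt1 and Cadm1 were thus highest in the Xcr1/Clec9a-gated cells, while Irf8 was also found in mature ones. Tlr3, the sensor of double-stranded RNA, was at 135 and 266 CPM in gated cells against 8.96 CPM in Cd209a-gated and 0 in mature cells. Cd8a, whose protein marks this type in lymphoid organs, was at 84.9 and 432 CPM in gated cells and at 0 in Cd209a-gated and mature cells, and it was the 1 gene of 6 tested on the T cell list that was higher than in ILC3s (3.25).

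Cd209a-gated cells, 11 in replicate 1, carried genes of the Sirpa and Irf4 type, several of which macrophages also carried. Irf4 was at 170 CPM (interval 102 to 266) against 5.54 CPM (1.14 to 16.2) in Xcr1/Clec9a-gated cells of that replicate. Itgam, the integrin CD11b, was at 269 CPM against 0 UMIs, at least 48.6-fold higher. Ccr1, a receptor for inflammatory chemokines, was at 188 CPM against 0 UMIs, at least 34.0-fold higher, and the lectin Clec4a2 at 125 CPM against 0. Mgl2, the lectin CD301b, had a UMI in 4 of the 11 cells and Sirpa in 6. Plet1 was at 654 CPM against 57.2 CPM, 11.4-fold higher, although it stood on the XCR1-type list. Over all members 9 of 18 tested genes of the CD209A list were higher than in ILC3s and 2 lower, with a median of 1.81. Macrophages of replicate 1 had 34 UMIs of Itgam, 17 of Ccr1, 13 of Clec4a2 and 15 of Sirpa among 62960, and 0 of Irf4. The CD209A list summed to 7957 CPM in those macrophages against 4596 CPM in the Cd209a-gated cells of replicate 1. In replicate 2 the single Cd209a-gated cell gives no check of these values.

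Members with no type gene, fewer than 20 UMIs of the mature genes Ccr7, Fscn1 and Ccl22 and no mark were 10 and 7 cells. Their median mitochondrial share of 9.40% and 14.1% was above the 6.79% and 7.15% of all members. They had some of the genes of Cd209a-gated cells in both replicates. Irf4 was at 246 and 305 CPM in them, Plet1 at 447 and 509 CPM and Il1b at 1765 and 1018 CPM. Flt3 was at 134 and 170 CPM and Itgax at 737 and 679 CPM. Irf8 was low, at 67.0 and 136 CPM, as in Cd209a-gated cells. Csf2rb, the shared chain of the GM-CSF receptor, was at 1430 and 3089 CPM against 1559 CPM in Cd209a-gated cells. Their median depths of 3905.5 and 4405 UMIs were lower than those of the gated cells of replicate 1, and whether Cd209a was missed at that depth was not tested, and they were not counted to that type.

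Between the 2 types in replicate 1, 2969 genes had enough counts, of which 328 (11.0%) were at least 2-fold higher in Xcr1/Clec9a-gated and 412 (13.9%) in Cd209a-gated cells, with no test. Of 15 XCR1-type genes 13 were at least 2-fold higher in the former and 1, Plet1, lower. Of 11 genes of the CD209A list 9 were at least 2-fold lower and 1, the receptor Clec12a, higher. Irf8 was 55.1-fold higher, Ppt1 32.1-fold and Naaa 7.07-fold. Il12b, the p40 chain of interleukin-12 and interleukin-23, was at 410 CPM against 0 UMIs, at least 15.2-fold higher. Of 5 cytokine genes 2 were at least 2-fold higher and 2 lower in Xcr1/Clec9a-gated cells, and of 9 chemokine genes 5 were higher and 2 lower. Of 15 genes of the mature list 10 were higher and 0 lower, Il12b, Ccl22 and Ccl17 among them. At least 20 UMIs of Ccr7, Fscn1 and Ccl22 were found in 8 of 47 Xcr1/Clec9a-gated and 0 of 11 Cd209a-gated cells. The part of maturity in the differences between the types was not tested. Cxcl9, a ligand of Cxcr3, was 8.34-fold higher and Tnf 7.13-fold higher in Xcr1/Clec9a-gated cells. Il1b was 3.66-fold higher in Cd209a-gated cells, at 1129 against 308 CPM. Cybb was 8.94-fold higher there and Fcer1g, the signalling chain of Fc receptors, 23.6-fold.

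Growth genes were present in both types. Mki67 or Top2a had a UMI in 27 of 47 Xcr1/Clec9a-gated cells (57.4%) and in 7 of 11 Cd209a-gated cells (63.6%) of replicate 1. Such UMIs were not particular to these types, since 7 of 12 (58.3%) and 3 of 11 (27.3%) mature cells of replicates 1 and 2 had them. Of 13 cell cycle genes 0 were at least 2-fold higher in the Xcr1/Clec9a-gated sum and 6 lower, for example Ube2c 5.35-fold and Birc5 4.10-fold. Against ILC3s, 5 of 14 cell cycle genes were higher and 0 lower, namely H2afz, Mcm3, Mki67, Tubb5 and Ube2c, with a median of 1.16.

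Some class II chains and proteases were lower in the Xcr1/Clec9a-gated cells. Of 9 genes on the list 4 were at least 2-fold lower there and 0 higher, against 13.9% lower over all genes. The 4 were H2-Oa (3.78-fold), H2-DMb2 (2.78-fold), Ctss (2.26-fold, at 544 against 1227 CPM) and Lgmn (9.11-fold). H2-Eb1 (1.02-fold lower) and H2-DMa (1.07-fold lower) were nearly equal in the 2 types. H2-DMb1 (1.46-fold), Ciita (1.56-fold) and H2-Ob (1.33-fold) were higher in Xcr1/Clec9a-gated cells, below the 2-fold limit. Psap, the precursor of the saposins that help digest lipids, was 2.34-fold higher in Xcr1/Clec9a-gated cells, at 7777 against 3324 CPM.

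Another set of members had the genes of mature, migrating dendritic cells. Cells with at least 20 UMIs of Ccr7, Fscn1 and Ccl22 together, a limit set after the values were seen, were 20 of 91 members in replicate 1 (22.0%) and 11 of 34 in replicate 2 (32.4%). In replicate 1, 8 of these were Xcr1/Clec9a-gated (17.0% of that type) and 0 of the 11 Cd209a-gated cells met the limit. The 12 and 11 cells that met it without any type gene are called mature cells here. Their median depth was 5436.5 and 7489 UMIs, and Flt3 had a UMI in 7 of 12 and 8 of 11.

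Mature cells were rich in the transcripts of movement and T cell attraction. Ccr7, the receptor that guides cells into lymph, was at 3816 and 3093 CPM in them, at 483 and 133 CPM in Xcr1/Clec9a-gated cells and at 26.9 CPM in Cd209a-gated cells. Fscn1, which bundles actin in dendrites, was at 2351 and 3834 CPM against 116 and 0 CPM in Xcr1/Clec9a-gated cells. Ccl22, which draws cells with Ccr4, was at 6570 and 3794 CPM against 849 and 166 CPM. Ccr7 and Ccl22 belong to the limit that chose the cells, and Fscn1 too, so these values are a description. Genes of the mature list outside it went both ways. Il4i1 was at 1182 and 449 CPM in mature cells against 72.0 and 0 CPM, Cacnb3, a calcium channel subunit, at 846 and 635 CPM against 29.5 and 0 CPM, and Relb, an NF-kappa B subunit, at 752 and 357 CPM against 113 and 133 CPM. Il12b, Cd80 and Cd86 were lower in the mature than in the Xcr1/Clec9a-gated cells of replicate 1, Il12b at 94.1 against 410 CPM, Cd80 at 53.7 against 95.9 CPM and Cd86 at 121 against 376 CPM. The endolysosomal Psap was lower in both replicates, at 107 and 436 CPM in mature cells against 7777 and 8211 CPM.

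Over all members, 15 of 20 tested mature-type genes were higher than in ILC3s (16 without the marked cells) and 0 lower, with a median of 5.25 (5.22 with bounds). Ccr7 was at 634 and 1005 CPM against 30.4 and 16.1 CPM (5.39 ± 0.49, edgeR adjusted p = 3.1e-05). Fscn1 was at 273 and 1158 CPM against 3.57 and 3.82 CPM (7.84 ± 0.47, edgeR adjusted p = 2.6e-06). Ccl22 was at 1078 and 1194 CPM against 7.15 and 16.8 CPM (6.62, edgeR adjusted p = 3.2e-06), and Ccl17, which shares its receptor, at 178 and 137 CPM (5.79). Relb did not pass (1.00, edgeR adjusted p = 0.062) except without the marked cells (1.37, edgeR adjusted p = 0.021). Traf1, Nfkb2 and Tmem123 did not pass with or without those cells and lay between -0.46 and 0.00. In contrast to the XCR1-type genes, Ccr7 and Fscn1 were higher in the members of replicate 2 than of replicate 1.

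Mature cells of replicate 2 also carried ILC3 transcripts. Il22, the main cytokine of ILC3s, was at 80.6 CPM in the mature cells of replicate 1 and at 635 CPM in those of replicate 2, with up to 3 and up to 26 UMIs in a cell. Tcf7, a transcription factor of lymphoid cells, was at 53.7 and 463 CPM and Rora, a nuclear receptor of innate lymphoid cells, at 80.6 and 489 CPM. For comparison, Il22 was at 4590 and 4077 CPM in ILC3s and at 75.6 CPM in the Xcr1/Clec9a-gated cells of replicate 1. It was at 63.5 and 691 CPM in C1q macrophages and at 794 and 1587 CPM in all kept cells. The higher Il22 level of replicate 2 was therefore not particular to mature cells. This holds for Il22 only, since the C1q macrophages of replicates 1 and 2 had 0 and 1 UMIs of Tcf7. Their Rora count was 2 and 20 UMIs, among 62960 and 94113 UMIs in all. Scrublet marked 0 of these mature cells, and whether the ILC3 transcripts were their own was not tested.

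Costimulatory genes were mostly higher than in ILC3s, 8 of 11 tested and 0 lower, with a median of 2.42. Cd86, the main partner of Cd28, was at 295 and 114 CPM against 3.57 and 1.53 CPM (6.38, edgeR adjusted p = 1.6e-05). Cd40, which receives help from T cells, was at 201 and 47.1 CPM, a ratio of 155 (interval 42.4 to 1292). Cd274, the inhibitory ligand PD-L1, was at 477 and 291 CPM against 150 and 73.4 CPM (2.00, edgeR adjusted p = 0.00082). Stimulating and inhibiting ligands were therefore both among the higher genes. Icosl (0.86), Vsir (-0.27) and Tnfrsf11a (0.08) did not pass.

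Cytokine genes were divided between the classes. Of 10 tested 4 were higher (Il12b, Il1b, Il1rn and Tnfsf13b) and 1 lower (Csf2), with a median of 2.25 (1.14 with bounds). Il1b, the inflammatory cytokine that acts on ILC3s, was at 493 and 381 CPM against 5.36 and 5.35 CPM (6.47 ± 0.38, edgeR adjusted p = 2.3e-06). Il12b was at 258 and 27.5 CPM, a ratio of 386 (interval 68.6 to 15301). Tnf was at 337 and 157 CPM against 277 and 167 CPM and did not pass (0.34, edgeR adjusted p = 0.50). The receptor side of the Csf2 pathway went the other way from its ligand. Csf2rb, the shared beta chain, was at 967 and 746 CPM against 25.01 and 1.53 CPM (6.64, edgeR adjusted p = 2.2e-05), and Csf2ra, the ligand-binding chain, at 665 and 373 CPM against 30.4 and 34.4 CPM (4.09, edgeR adjusted p = 1.7e-05). In the list of growth factor and cytokine receptors 6 of 14 were higher and 2 lower, Kit (-1.71) and Ifngr1.

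Chemokines were higher in 7 of 13 tested and lower in 1, with a median of 2.92. Cxcl16, the membrane-bound ligand of Cxcr6, was at 327 and 346 CPM against 1.79 and 6.88 CPM (6.33). Cxcl10, a ligand of Cxcr3, was the exception at 573 and 762 CPM against 2526 and 1527 CPM (-1.39). Among chemokine and lipid receptors Ccr1, Ccr7, Ptger4 and Xcr1 were higher, and Ccr6 and Gpr183, both guides of ILC3s to lymphoid tissue, were lower, of 11 tested. Gpr183 no longer passed without the marked cells (-1.01, edgeR adjusted p = 0.093).

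On the retinoid and tolerance list 3 of 9 tested genes were higher and 1 lower, with a median of -0.02 (2 and 1 of 7 without the marked cells). Aldh1a2, the enzyme that makes retinoic acid in gut dendritic cells, was at 292 and 153 CPM against 3.57 and 1.53 CPM (6.55 ± 0.58, edgeR adjusted p = 2.7e-05). By class it was at 354 and 465 CPM in Xcr1/Clec9a-gated, 699 and 238 CPM in mature and 35.8 CPM in Cd209a-gated cells. Itgav, an integrin chain that helps activate TGF-beta, was lower. Of 11 pattern receptor genes 8 were higher and 0 lower, with a median of 2.35 (1.85 with bounds). Tlr11, which senses a protozoan profilin, was at 76.6 and 27.5 CPM and absent from ILC3s, at least 14.3-fold and 11.98-fold higher. Nlrp3, the inflammasome sensor, was at 142 and 322 CPM (2.35).

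The actin and migration list had 7 of 11 genes higher and 0 lower (9 of 11 without the marked cells), with a median of 1.31. Actb was at 14561 and 12834 CPM against 2782 and 4018 CPM (2.20, edgeR adjusted p = 0.00012). Lsp1, an actin-binding protein of leukocytes, was at 1327 and 1685 CPM against 314 and 345 CPM (2.37), and in mature cells it reached 3090 and 3781 CPM. Of 24 transcription factors 4 were higher (Irf8, Spi1, Cebpa and Ahr) and 3 lower (Maf, Nfil3 and Runx3), with a median of 0.26, shares near the 12.7% and 9.62% over all genes. With the marked cells left out 7 were higher and 4 lower. Interferon-response genes had 0 of 11 higher and 1 lower, Igtp (-2.25), with a median of 0.02, and 2 lower without the marked cells, Ifit1 (-2.88) being added.

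Lists for other cells showed what else the sums held. Of 6 stromal genes 6 were higher than in ILC3s, with a median of 4.14 (4.06 with bounds). Their sum was 4572 and 15092 CPM in members and 381 and 158 CPM without the marked cells, where 0 of 4 tested genes passed and the median was -0.49. Monocyte genes were higher in 3 of 7 and macrophage genes in 8 of 12, with 1 macrophage gene lower. Leaving out the marked cells, these counts were 1 of 5 for monocytes and 6 higher and 1 lower for macrophages. All 5 tested ILC3 genes were lower (Ccr6, Gata3, Kit, Rora and Tcf7), with a median of -2.76. Plasmacytoid genes had 0 of 7 higher and 1 lower, Runx2, and 1 member had 26 UMIs of Siglech, of which no other member had more than 1. Plasma cell transcripts varied between replicates in all cells, with Igkc at 106753 and 6067 CPM in kept cells and 4885 and 141 CPM in members.

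Against macrophages the members were lower for macrophage genes and for many lysosomal ones. Of 3165 genes with a mean of at least 50 CPM, 207 (6.54%) were at least 2-fold higher and 282 (8.91%) at least 2-fold lower in members in both replicates, and the median log2 ratio was -0.01 and 0.04. Macrophages were 9 and 16 cells, so no test was made. Of 12 macrophage genes 11 were at least 2-fold lower in members, although C1q itself had chosen both classes and was not counted. Lyz2, lysozyme, was at 524 and 137 CPM in members against 10530 and 5844 CPM, 20.1-fold and 42.5-fold lower. Csf1r, the receptor that macrophages need to survive, was at 15.8 (interval 8.62 to 26.5) and 11.8 CPM (2.43 to 34.4) against 937 and 1158 CPM. The 2 classes were far apart for both genes.

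Lysosomal and inflammatory genes were lower as well. Of 17 lysosome and phagocytosis genes 11 were at least 2-fold lower and 0 higher. Ctsb, a cathepsin, was 5.45-fold and 8.55-fold lower and Cybb 20.4-fold and 23.2-fold. Among class II processing genes only the proteases Ctss and Lgmn of 8 differed by this rule, Ctss being 4.98-fold and 9.81-fold lower. H2-Aa, which chose both classes, was at 11334 and 5192 CPM in members and 13834 and 13293 CPM in macrophages. Of 8 cytokine genes 4 were lower (Il1b, Il1rn, Il1a and Osm), with Il1b at 493 and 381 CPM against 2764 and 3230 CPM. Il1b thus stood between ILC3s and macrophages in the members. The neutrophil chemokine Cxcl2 was 9.35-fold and 14.3-fold lower, and Ccl3 7.76-fold and 14.6-fold. The CD209A list had 10 of 13 genes at least 2-fold lower, among them Sirpa by 11.1-fold and 9.02-fold.

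**Figure D4:**
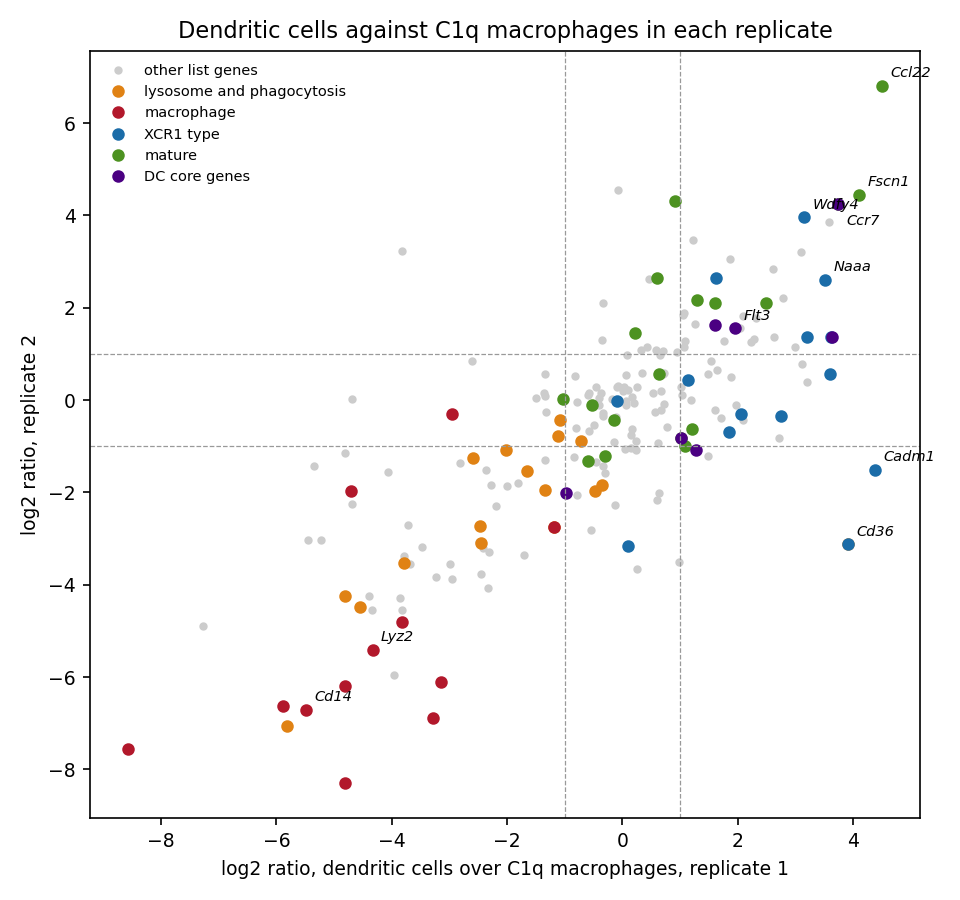
Log2 ratio of dendritic cells over C1q macrophages in replicate 1 (x axis) and replicate 2 (y axis), 1 point per gene of the lists, with 5 lists coloured and dashed lines at 2-fold. Macrophage genes lie to the lower left, for example Cd14 at -5.49 and -6.71, and mature dendritic cell genes in the upper right, for example Fscn1 at 4.10 and 4.45.

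Genes higher than in macrophages included those of dendritic cell identity and movement, and some of division. Stromal genes were at least 2-fold higher in 5 of 5 and ILC3 genes in 2 of 3 (Kit and Rora), in sums that hold the marked cells. Flt3 had 0 UMIs in macrophages and was at least 3.88-fold and 2.96-fold higher, and Itgax, shared by both, was 1.97-fold and 4.06-fold lower. Naaa was 11.5-fold and 6.10-fold higher. Lsp1 was 11.9-fold and 14.4-fold higher, at 111 and 117 CPM in macrophages, and Tmsb10, which binds actin monomers, 4.24-fold and 3.54-fold higher. Mature genes at least 2-fold higher were 6 of 18 (Ccr7, Fscn1, Ccl22, Ccl17, Il4i1 and Traf1) and XCR1-type genes 5 of 14 (Xcr1, Itgae, Wdfy4, Naaa and Plet1). Of 7 cell cycle genes 3 were at least 2-fold higher (Tubb5, Top2a and Stmn1) and 0 lower. Tubb5, a tubulin of dividing cells, was 6.93-fold and 4.62-fold higher. Top2a and Stmn1 had at most 1 UMI in the macrophages of either replicate. Mki67 was nearly equal, at 1.02-fold and 1.19-fold. On the class I list Psmb9 (3.39-fold and 2.42-fold), the peptide transporter chain Tap2 and the loading helper Tapbpl were higher.

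Some values disagreed between replicates. Cadm1 was 20.9-fold higher than in macrophages in replicate 1, from 1 UMI in macrophages, and 2.84-fold lower in replicate 2, where macrophages had 436 CPM. Irf8 was 4.14-fold higher in replicate 1 and 1.23-fold lower in replicate 2. The members of replicate 2 held few Xcr1/Clec9a-gated cells, and the macrophages of that replicate carried stromal genes at 5366 CPM against 889 CPM in replicate 1, and the part of either in these values was not tested.

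Transcripts of the targeted gene were found in the members. Cxxc1 was at 41.7 CPM (interval 29.3 to 57.5) and 74.6 CPM (44.9 to 117) in members and 48.2 and 42.8 CPM in ILC3s. Members and ILC3s did not differ by the test (log2 fold change 0.48, edgeR adjusted p = 0.49). The assay reads the transcript's 3' end and the deleted exons are not given in the sources used here, so these levels do not check the deletion. Of 11 tested genes of the SET1 and related complexes 0 were higher and 1 lower than in ILC3s, the methyltransferase Kmt2a (-1.29), with a median of -0.71, and the share lower was close to the 9.62% over all genes.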

How the data were processed

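Cells had been profiled with the BD Rhapsody whole-transcriptome assay. The deposited tables hold counts of UMIs per cell and gene, not normalised, made per the file headers with the BD WTA Multiplex Rhapsody pipeline 1.8 on GRCm38 with GENCODE vM19. The sample tag of each cell, a name and so a unit other than a count, is a deposited call of that pipeline. HISAT2 2.0.5 and Bowtie2 appear in the submitters' processing notes with no stated use.

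Replicate 1 was tag 4 of a capture of 8064 cells and replicate 2 tag 2 of a capture of 15793. The tags used held 2077 and 4532 cells with 11939862 and 12141164 UMIs, 6 other tags, multiplets and undetermined cells were not used, and 7 barcodes occurred in both replicates. A cell was kept (1945 and 4185, median 4267 and 2365 UMIs) when it had 300 or more genes and mitochondrial UMIs did not pass 25%. The 21027 genes common to both tables were used.

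UMIs were summed per class and replicate. Dendritic cells, macrophages and ILC3s were fitted together in edgeR 4.0.16 (R 4.3.3) with TMM, filterByExpr and the quasi-likelihood test, two-sided. SE is the log2 fold change divided by the root of F. All classes come from the same tagged samples, so replicate was a block. The 13 gate genes were left out of calls. With 6 sums the fit had 2 residual degrees of freedom and a biological coefficient of variation of 0.229. Each gene's spread was drawn towards that of all genes, with 9.44 prior degrees of freedom. The fit was tested on simulated data. Poisson intervals for levels and Clopper-Pearson intervals for shares are exact, at 95%, and the floor for a count of 0 is 3 counts. For folds, both replicates had to pass 2-fold and the mean be at least 50 CPM, and a count of 0 was set at 3. Python 3.11.15, numpy 2.4.6, scipy 1.17.1, pandas 2.3.3 and scanpy 1.11.5 were used.

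The members, gates and gene lists were chosen with earlier results of these data known. Named genes are the 10 largest log2 fold changes in each direction among those with an adjusted p under 0.05, at least 50 CPM on average and the same direction in both replicates, without gate, immunoglobulin and T cell receptor genes, plus list genes that a paragraph describes. The marked and mature cells were defined after their values were seen. Promoters and gene positions are RefSeq's for GRCm38.p6. Some items are not reported here.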

Additional observations from a re-analysis of the deposited data

How the results depend on the processing

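For dendritic cells over ILC3s the counts ran from 414 to 1035 genes higher and 257 to 760 lower over DESeq2 1.42.0, other size factors, filters, doublet removal, stricter gates, 2 classes in place of 3, thinning and the marked cells. DESeq2 gave 271 lower. With every cell thinned to 2000 UMIs 414 were higher and 257 lower, over 2825 genes tested. The pairing comes from the shared tagged samples, and without the replicate block 743 were higher and 514 lower. Of the 20 named genes 0 changed direction, and under DESeq2 Agr2, Plet1, Il4i1 and Pgc no longer passed (adjusted p 0.0811, 0.183, 0.0503 and 0.227). The causes were not tested. Against macrophages 111 genes were at least 2-fold higher after thinning, and single replicates gave 482 to 553 higher and 538 to 597 lower, since 1 replicate has to pass in place of both. Between the types 961 genes were lower in Xcr1/Clec9a-gated cells after thinning. Without the marked cells, an alternative chosen after seeing the data, the share of dendritic cells in replicate 2 was 0.550%. After thinning the Cd209a-gated share was 5.75% in replicate 1 and 0 in replicate 2. With a replicate left out the ILC3 comparison has no residual spread and received no count, and the test-based alternatives for macrophages and for the types were not run because a class had fewer than 10 cells. Depth limits rare transcripts most in replicate 2, where 34 members gave 254645 UMIs.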
